A study of Mus musculus with 6 samples.

Results

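Granins and prohormone processing enzymes are 8 genes of the regulated secretory pathway: the granins Scg2, Chgb, Chga, Scg5 and Scg3, and the enzymes Pcsk1, Pcsk2 and Cpe. They were chosen by gene symbol among 12488 probe sets on a mouse expression array. Of the 8 genes, 7 had a probe set with 1 gene symbol, of 8251 such genes on the array, and these 7 genes had 11 probe sets; no probe set carried the symbol Pcsk2, which is not analysed here by expression. Each gene is represented by its brightest probe set, and every other probe set is given too. The group was proposed with earlier results of the same deprived against non-deprived comparison in view, Scg2 among them, so the differences below are a description of these arrays and are not independent evidence.

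Neurons and endocrine cells store peptides in dense-core vesicles and release them on demand. Granins are acidic proteins that aggregate with the peptide precursors in the Golgi apparatus and help to form these vesicles; several are themselves cut into peptides. Prohormone convertases cut precursors at pairs of basic residues, and carboxypeptidase E then trims the basic residues from the new ends. In cortex the pathway serves neuropeptides of GABAergic interneurons, such as somatostatin and neuropeptide Y, and neurotrophins of excitatory neurons, such as Bdnf.

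The tissue was visual cortex of wild-type C57Bl6 mice from which 1 eye had been removed at postnatal day 100, taken 4 days later. The deprived group is 3 arrays of cortex contralateral to the removed eye, and the non-deprived group is 3 arrays of cortex ipsilateral to it, so every sample came from an operated animal and there was no group with both eyes. Per the labels, 4 mice were operated and the samples were pooled; how mice map to arrays is not stated, so the spread between the 3 arrays of a group may be technical. Values are MAS5 signals, a brightness in arbitrary units per probe set that sets no gene's level against another's.

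The sequences immediately upstream of the members are shown first because 3 of them hold an identical element. The cAMP response element is a palindrome of 8 bases bound by CREB, a transcription factor that calcium and cAMP signals activate in neurons, and granin promoters are a textbook setting for it. Among the 7 members with a promoter entry in RefSeq's mouse assembly GRCm38.p6, the full element TGACGTCA stood in the window from 250 bases before to 50 bases after the gene start of Scg2, Chgb and Pcsk1, which is 3 of 7, against 1.79% of 32851 promoter windows of the same length. The element was more frequent among genes bright enough to be tested, at 160 of 4549 with a promoter entry. In the members it began 68 bases upstream of the start in Scg2, 72 bases upstream in Chgb and 78 bases upstream in Pcsk1. The 120 bases upstream of these 3 genes, and of Chga as a granin without the full element, are printed with each match to the core element TGACG, on either strand, in capitals; where matches on both strands overlap they form the full element.
Scg2 (chr1:79440027-79440146, minus strand): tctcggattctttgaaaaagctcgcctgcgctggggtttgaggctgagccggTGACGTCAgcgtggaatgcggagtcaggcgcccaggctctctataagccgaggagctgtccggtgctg
Chgb (chr2:132781522-132781641, plus strand): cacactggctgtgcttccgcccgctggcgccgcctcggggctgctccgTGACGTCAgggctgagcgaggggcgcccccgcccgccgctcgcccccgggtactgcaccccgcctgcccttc
Pcsk1 (chr13:75089737-75089856, plus strand): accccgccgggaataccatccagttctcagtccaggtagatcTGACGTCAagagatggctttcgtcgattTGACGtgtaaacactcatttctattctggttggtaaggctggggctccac
Chga (chr12:102554821-102554940, plus strand): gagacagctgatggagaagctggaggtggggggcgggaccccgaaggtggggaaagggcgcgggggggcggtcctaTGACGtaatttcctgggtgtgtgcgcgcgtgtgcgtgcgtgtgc
In Chga the core element began 44 bases upstream of the start. All 7 members held at least 1 core element on either strand, which 20.8% of all promoter windows also did. So did 1656 of the 4549 tested genes with a promoter entry. The full element contains the core element on both strands. Neither the AP-1 element TGACTCA, held by 5.2% of windows, nor the Egr element GCGTGGGCG, held by 0.612%, occurred in these 7 windows on either strand. A match is a run of letters and not evidence of binding.

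**Figure D1:**
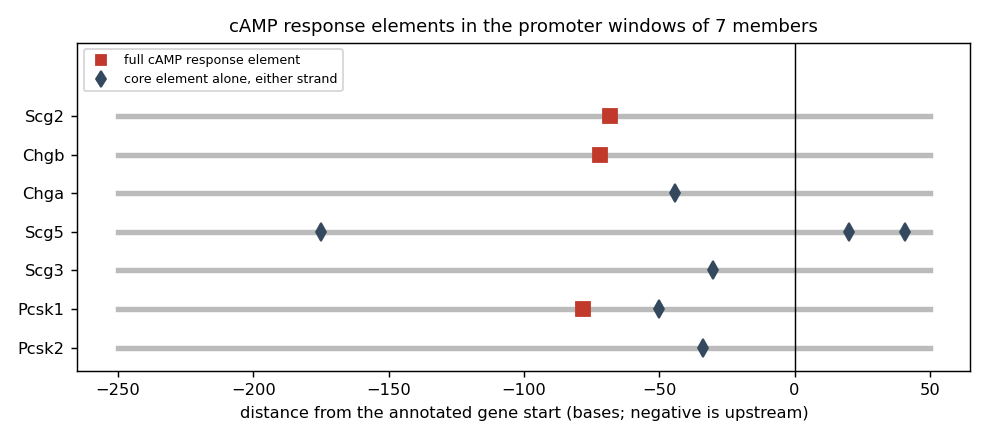
Positions of the full cAMP response element (squares) and of the core element alone (diamonds) in the promoter windows of 7 members, in bases from the annotated gene start, with upstream to the left. In Scg2, Chgb and Pcsk1 the full element lies 68 to 78 bases upstream of the start.

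Median signals were 206.4 to 219.7 in deprived and 202.8 to 218.3 in non-deprived arrays. The ratio of 3′ to 5′ signal for β-actin, a measure of RNA integrity, was 1.26 to 1.63 in deprived and 1.28 to 1.51 in non-deprived arrays. Non-deprived replicate 3 stood apart in the 18S ribosomal RNA control (3′ end), at 2689 against 661 to 981 on the other 5 arrays. As a check of the labels, Fos, an immediate-early gene that neuronal activity switches on, fell in deprived cortex (703 ± 87.7 in deprived and 2946 ± 236 in non-deprived arrays, mean ± SD, n = 3 arrays each; limma adjusted p = 0.00014), as did Egr1, another such gene (2846 ± 211 in deprived and 6248 ± 326 in non-deprived arrays; limma adjusted p = 0.00048). Of 7453 probe sets bright enough to be tested (mean signal of at least 134.7), 13 passed limma at an adjusted p under 0.05, 12 of them lower in deprived arrays (0.161%) and 1 higher (0.0134%), and the median log2 change over all of them was 0.01.

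The comparison sets the hemisphere that lost most of its visual drive against the one that kept it. Among the members, Scg2 and Chgb had lower signal on every deprived array than on any non-deprived array, by 1.38-fold and 1.24-fold in the means. Chga, Scg3 and Pcsk1 had lower means with overlapping arrays, and Scg5 and Cpe had slightly higher means with overlapping arrays. None of the 9 member probe sets that were tested passed limma's adjusted threshold, against 0.174% of all probe sets tested; 2 of the 9 (Scg2 and Chgb) had an unadjusted p under 0.05, as did 379 of the 7453 (5.09%), and adjusted p over all probe sets ran from 0.51 for Chgb to 0.99 for a dim probe set of Chga.

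Scg2 encodes secretogranin II, the precursor of the peptide secretoneurin and a gene known to respond to neuronal activity. It read 729.5, 626 and 692 on the deprived arrays, against 924, 1014 and 894 on the non-deprived arrays. The highest deprived array lay below the lowest non-deprived array, and the difference between group means, 683 ± 52.25 in deprived and 944 ± 62.6 in non-deprived cortex (SD, n = 3 each), was larger than the spread within either group. Its log2 change, deprived minus non-deprived on log2(signal + 16), was -0.46 (SE 0.12, 95% interval -0.74 to -0.18), the lowest of the 11 member probe sets. In bulk tissue such as this, fewer cells that express a gene and less RNA per cell cannot be told apart.

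Chgb encodes chromogranin B, a core granin of the vesicle matrix. Its bright probe set read 9365, 8331 and 7936 on the deprived arrays, against 10374, 10414 and 10987 on the non-deprived arrays. Again no deprived array reached the lowest non-deprived one, and the means were 8544 ± 738 in deprived and 10591 ± 343 in non-deprived cortex (SD, n = 3 each; log2 change -0.31, SE 0.08, 95% interval -0.49 to -0.13). That probe set is an _f set, a design that can share probes with related transcripts. The other Chgb probe set, an _r set, read 43.4 to 99.3 in deprived and 49.6 to 66 in non-deprived arrays, below the signal filter, and had a log2 change of 0.17 (95% interval -0.65 to 0.98).

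Groups that do not overlap were common on these arrays: every deprived array lay below every non-deprived array for 4.59% of probe sets tested and above for 5.5%, which makes 10.1% in all. Among the brightest probe sets of the 7 members this was so for 2 lower (Scg2 and Chgb) and 0 higher. Over all 11 member probe sets it was so for 3 lower and 1 higher, the additional ones being second probe sets of Scg3 and Cpe.

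**Figure D2:**
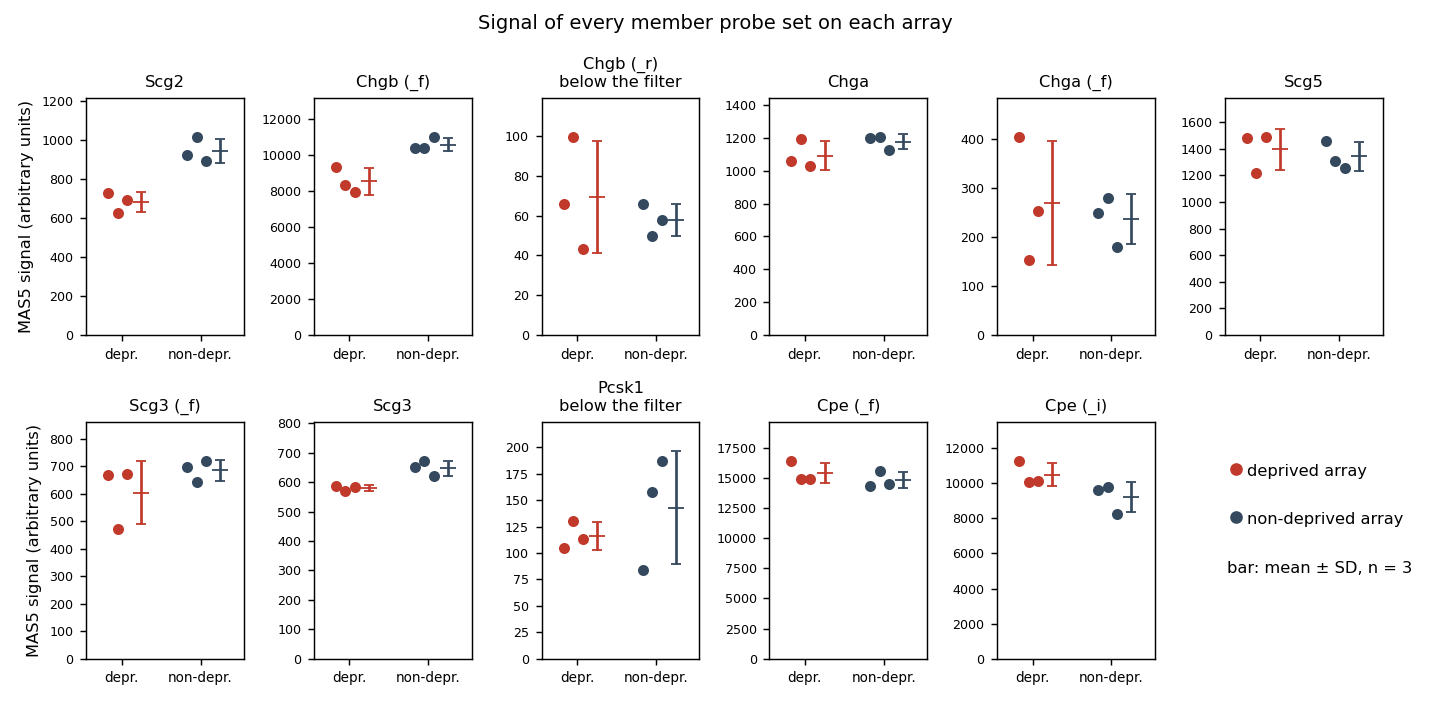
MAS5 signal (arbitrary units, linear axis from 0) of the 11 member probe sets, with 3 deprived arrays on the left and 3 non-deprived arrays on the right of each panel and bars for mean ± SD. The deprived arrays lie below the non-deprived arrays for Scg2, the _f set of Chgb and the plain set of Scg3, and above them for the _i set of Cpe.

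Chga encodes chromogranin A, the granin used as a general marker of neuroendocrine cells and a precursor of several peptides. It read 1056, 1191 and 1026 on the deprived arrays, against 1201, 1202 and 1126 on the non-deprived arrays. Deprived replicate 2 lay among the non-deprived arrays, and the log2 change was -0.11 (SE 0.11, 95% interval -0.36 to 0.14). The dimmer _f probe set of Chga varied more, at 402, 152 and 253 in deprived against 249, 279 and 179.9 in non-deprived arrays, with a log2 change of 0.10 (95% interval -0.64 to 0.84).

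Scg3 encodes secretogranin III, which binds chromogranin A and cholesterol-rich vesicle membrane. Its brightest probe set, an _f set, read 669, 471.5 and 669.8 on the deprived arrays, against 695, 643 and 718 on the non-deprived arrays. Deprived replicate 2 was the low one, and without that array the log2 change of -0.20 (SE 0.16) became -0.03. The second probe set, which is not of the _f, _r or _i kinds, read 586, 568 and 585 in deprived and 651, 671 and 619 in non-deprived arrays, with no overlap and a log2 change of -0.15 (SE 0.12).

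Scg5 encodes a small granin that acts as a chaperone of the convertase encoded by Pcsk2. It read 1480.5, 1221 and 1485 on the deprived arrays, against 1461, 1308 and 1258 on the non-deprived arrays. The groups overlapped fully, and the 95% interval of its log2 change of 0.05 ran from -0.21 to 0.32. That interval overlaps the one of Chgb (-0.49 to -0.13), and a difference between the genes was not tested.

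Of the enzymes, Pcsk1 encodes a convertase that makes the first cuts in many precursors. Its single probe set read 105, 130.5 and 113 on the deprived arrays, against 83.7, 158 and 187 on the non-deprived arrays. The non-deprived arrays spanned the deprived ones, the mean of 129.5 lay under the filter, and the gene was not tested; its log2 change of -0.21 had a 95% interval from -1.001 to 0.59. Without non-deprived replicate 3 the log2 change of Pcsk1 was 0.00083, and without non-deprived replicate 1 it was -0.51.

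Cpe encodes carboxypeptidase E. Its brightest probe set, an _f set, read 16385, 14929 and 14883 on the deprived arrays, against 14361, 15597 and 14513 on the non-deprived arrays. The groups overlapped, with a log2 change of 0.05 (SE 0.07, 95% interval -0.10 to 0.21). The _i set of Cpe read 11257, 10085 and 10116 in deprived and 9604, 9789 and 8254 in non-deprived arrays. Every deprived array was the higher on that set, and its log2 change was 0.19 (SE 0.09, 95% interval -0.01 to 0.38).

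**Figure D3:**
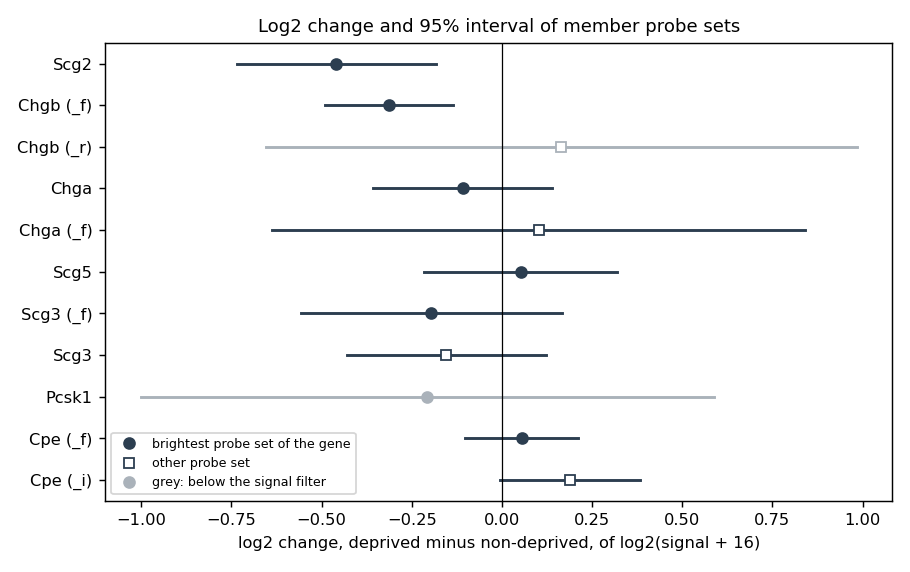
Log2 change, deprived minus non-deprived, on log2(signal + 16), with its 95% interval, for the 11 member probe sets; filled circles are the brightest set of each gene, open squares the others, and grey marks the 2 sets below the signal filter. The intervals of Scg2 and of the _f set of Chgb lie below 0, and the other 9 include 0.

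Over the 7 genes, 5 had a lower mean in deprived arrays, as did 47.8% of all probe sets tested. The median log2 change of the 7 was -0.20, beside 0.01 over all probe sets tested, and it was -0.074 when the probe sets of each gene were averaged. Without Pcsk1, which was not tested, the 6 tested genes had a median of -0.15, and 4 of them had a lower mean. The 5 granins ran from -0.46 to 0.05. The 9 tested member probe sets had a median SD within a group of 0.10 on the log2 scale, against 0.21 over all probe sets tested. The dimmest of the 9, the _f set of Chga, had an SD of 0.51. No comparison with probe sets of similar brightness was made. Leaving out each array in turn kept Scg2 between -0.51 and -0.40 and Chgb between -0.38 and -0.26. The groups of these genes did not overlap, so leaving out an array could change the size but not the sign. When non-deprived replicate 3, which read high for 18S, was left out, Scg2 had a log2 change of -0.50, Chgb -0.29, Chga -0.14, Scg3 -0.16, Scg5 0.01 and Cpe 0.04.

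**Figure D4:**
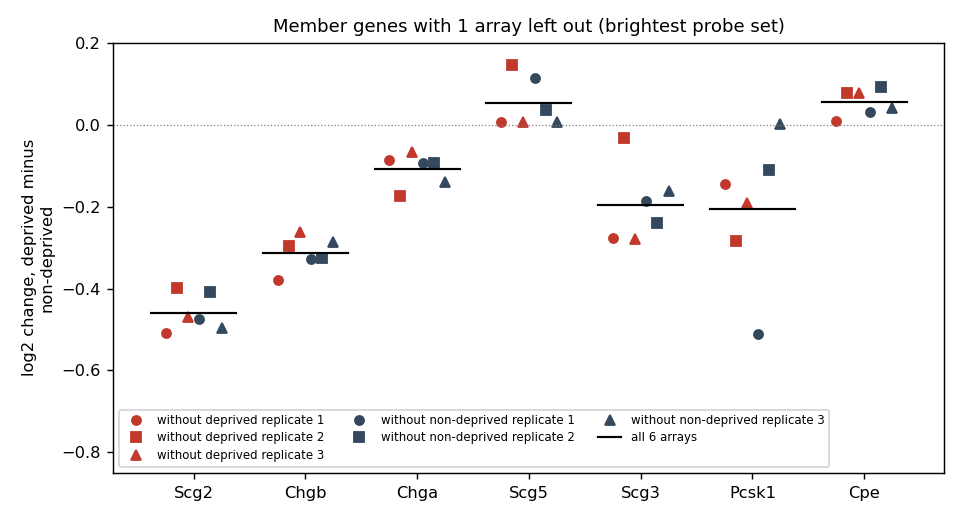
Log2 change of the 7 member genes (brightest probe set) with each array left out in turn (symbols, red for deprived and blue for non-deprived arrays) and with all 6 arrays (black bars). Scg2 and Chgb stay below -0.25 in each of these 6 fits, while Pcsk1 spans -0.51 to 0.00083. The groups of Scg2 and Chgb did not overlap, so their sign could not change in these fits.

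The 3 probe sets whose profile over the 6 arrays lay nearest to that of Scg2 were those of Nab2, Mllt3 and Manf. Nearness was the Euclidean distance between log2 signals centred on each probe set's own mean, and it was 0.11 for Nab2, 0.13 for Mllt3 and 0.14 for Manf, against a median of 0.78 over 6715 probe sets with 1 symbol. Nab2 encodes a co-repressor of Egr transcription factors, Mllt3 a chromatin reader linked to transcription elongation, and Manf a secreted protein of the endoplasmic reticulum. For Chgb the nearest were Fggy, a carbohydrate kinase gene (0.09), Ccs, the copper chaperone of superoxide dismutase (0.13), and Eif5b, a translation initiation factor (0.14). Chgb itself lay at 0.30 from Scg2, with 28 probe sets nearer to Scg2. These distances include the difference between the groups, so they favour probe sets that are also lower in deprived arrays. Shared regulation was not tested.

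The cargo of the pathway included the 1 gene that passed among the lists of other pathway genes. Of 16 tested genes for peptide and neurotrophin precursors (30 on the list), 1 fell, 0 rose and 10 had a lower mean. Over all probe sets tested, 0.161% fell, 0.0134% rose and 47.8% had a lower mean. The median log2 change of the list was -0.09. The list was chosen with earlier results of these data known, so its counts are a description and not independent evidence. Bdnf, a neurotrophin sorted into dense-core vesicles, fell to 653, 848 and 621 in deprived arrays, against 1227, 1411 and 1461 in non-deprived arrays (log2 change -0.94, SE 0.14, limma adjusted p = 0.045), and in 9 of 14 alternative fits no gene of the list passed. Sst (somatostatin) read 3391, 3457 and 3491 in deprived and 4792, 4578 and 4193 in non-deprived arrays (log2 change -0.39, SE 0.08, limma adjusted p = 0.26). Npy (neuropeptide Y) read 1862, 1681 and 2103 in deprived and 2477, 2342 and 2706 in non-deprived arrays (log2 change -0.42, SE 0.11, limma adjusted p = 0.59). Every deprived array lay below every non-deprived array for 4 of the 16 (Bdnf, Sst, Npy and the dim Hcrt, the orexin precursor), and above for 0, beside 4.59% and 5.5% of all probe sets tested. An unadjusted p under 0.05 was found for 4 lower genes (Bdnf, Sst, Npy and Cck, the cholecystokinin precursor) and 1 higher gene. Over all probe sets tested the share was 5.09% in either direction. The higher one was Cort, the cortistatin precursor, at 170, 340.1 and 298 in deprived and 113.6, 199.4 and 122 in non-deprived arrays (log2 change 0.81, SE 0.33, limma adjusted p = 0.95).

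In the other 4 lists of the pathway, 0 of 39 tested genes passed limma in either direction, and 1 had an unadjusted p under 0.05, beside 5.09% of all probe sets tested. Other granule proteins had a median log2 change of -0.02 over 4 tested genes. Resp18, a luminal endocrine protein, had the smallest p of them (-0.19, SE 0.10), followed by Pcsk1n, the precursor of an inhibitor of the convertase encoded by Pcsk1 (-0.03, SE 0.09), and Gnas, whose locus also encodes a granin-like protein (0.01, SE 0.06). Other proteases and modifying enzymes of the secretory pathway had a median of -0.04 over 11 tested genes; the convertase genes Pcsk6 (0.35, SE 0.27) and Pcsk4 (0.80, SE 0.66) and the cathepsin gene Ctsl (0.13, SE 0.13) had the smallest p. Pcsk4 had a log2 change of -0.89 on a second, dimmer probe set that was not tested. Gnas had -0.14 on a dimmer tested probe set and 0.82 on a dimmer one that was not tested.

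Proteins of the vesicle membrane and of release had a median of -0.09 over 11 tested genes, with 8 lower. Rab3a, a small GTPase of vesicles, had a log2 change of 0.73 (SE 0.30), Ptprn, a transmembrane protein of dense-core vesicles, -0.12 (SE 0.08), and Cyb561, an electron carrier of their membrane, -0.16 (SE 0.11). On dimmer probe sets Cyb561 had -0.03, and Rab3a had 0.97 on one that was not tested. The proton pump that acidifies the vesicles had a median of 0.01 over 13 tested genes. Its accessory subunit Atp6ap2 had 0.24 (SE 0.13), and the subunits Atp6v1b2 and Atp6v0d1 had -0.09 (SE 0.06) and -0.13 (SE 0.10). A dimmer probe set of Atp6v1b2 had 0.0005.

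**Figure D5:**
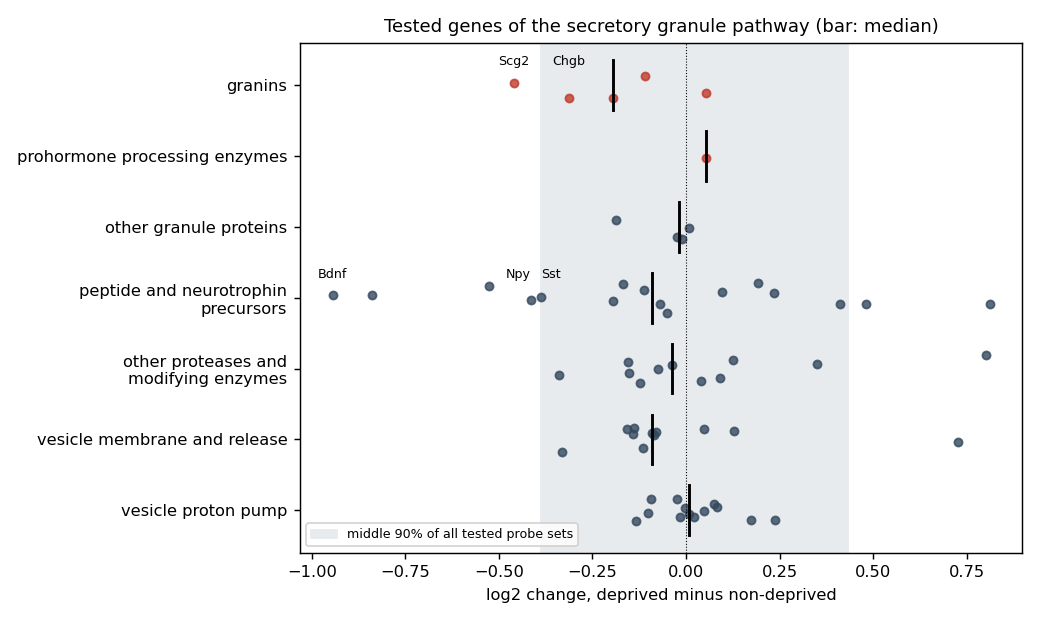
Log2 change, deprived minus non-deprived, of each tested gene in 7 lists of the secretory granule pathway (points; members in red), with the list median (black bar) and the middle 90% of all tested probe sets shaded, from -0.39 to 0.43. Scg2 lies outside the shaded range and Chgb within it.

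Genes with a full cAMP response element in the promoter window, 160 of 4549 tested genes with a promoter entry, had a median log2 change of -0.01 in deprived cortex, beside 0.01 over the 4549. Of the 160, 1 fell (Dusp1, a phosphatase of MAP kinases, log2 change -1.13, limma adjusted p = 0.0014) and 0 rose, beside 7 that fell and 1 that rose among the 4549. Every deprived array was below every non-deprived array for 14 of the 160 (8.75%), Scg2 and Chgb among them, against 4.79% of the 4549, and above for 3 (1.88%), against 5.67%. Among the 1656 genes with at least 1 core element, which include the members, the shares were 5.92% below and 4.77% above. These shares were not tested, and they count Scg2 and Chgb, which were proposed with this same comparison in view.

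Summed marker signals were set beside the lower granin signals. The brightest probe sets weigh most in each sum, so a sum need not follow most of its markers. Among 6 astrocyte markers, 4 had a higher mean, but the brightest, Aldoc, had a log2 change of -0.25. The summed signal of 7 GABAergic neuron markers, which include Sst and Npy, was 13890 to 15700 in deprived and 17300 to 18200 in non-deprived arrays, without overlap. Without Sst and Npy the other 5 summed to 8754 to 10450 in deprived and 10380 to 11290 in non-deprived arrays, which overlap. General neuron markers (7 of 8 on the array) had 6 lower means and a median log2 change of -0.12, beside 6 of 7 and -0.14 for the GABAergic markers, and summed to 41280 to 44030 in deprived and 43830 to 46050 in non-deprived arrays, which overlap. Cortical excitatory markers (4 of 5) summed to 6806 to 8682 in deprived and 6622 to 8421 in non-deprived arrays, which overlap. Of these 4, Fezf2 was lower on every deprived array (log2 change -0.45, limma adjusted p = 0.77), and the other 3 had higher means. The astrocyte, oligodendrocyte, microglia and endothelial sums overlapped likewise. Sums for thalamus markers (2260 to 2742 in deprived, 2408 to 3375 in non-deprived arrays) and hippocampus markers (1626 to 2258 in deprived, 1239 to 1662 in non-deprived arrays) also overlapped. All 4 tested thalamus markers had a lower mean (median log2 change -0.17) and all 3 tested hippocampus markers a higher one (0.41 to 0.62). Of those 3, Neurod6 was also on the cortical excitatory list. Another hippocampus marker, Prox1, lay below the signal filter and had a log2 change of -0.45. None of these markers passed limma, and their part in the granin signals was not tested. Markers of pituitary endocrine cells, which make granins but lie outside cortex, summed to 1681 to 1910 in deprived and 1859 to 2142 in non-deprived arrays, and 5 of these 7 passed the signal filter, so a signal above the filter does not by itself show expression here.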

How the data were processed

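Visual cortex from 3 deprived and 3 non-deprived samples was hybridised to 1 array each. The authors deposited 1 table of 12488 probe sets, holding signal intensity, untransformed, from MAS5 software per the submitters' processing notes; scaling settings are not given in the sources used here. All arrays had the same 2% trimmed mean (500.3), so rescaling to it left the values as they were. Detection calls were not used here, and the number of arrays limits the precision.

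The 66 control probe sets were set aside, and the 7453 probe sets whose mean signal ranked in the top 60% were tested on log2(signal + 16) with limma 3.58.1 in R 4.3.3 (lmFit, eBayes with an intensity trend, group as the only term, two-sided, Benjamini-Hochberg adjustment over all 7453, threshold 0.05). Intervals are 95% intervals of that fit; for the probe sets below the filter they come from the fit of all probe sets. Adding 16 shrinks the fold changes of dim probe sets. The fit was tested on simulated data.

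Genes were named from the platform annotation through the Entrez ID (10855 probe sets with 1 symbol, 396 with several, 1237 unnamed). The members and lists were chosen with earlier results of these data known. Named genes were all members, each list's called genes or otherwise the 3 with the smallest p, the 3 nearest profiles to Scg2 and Chgb, and Fos and Egr1; Sst, Npy, Cort, Cck, Hcrt and Dusp1 were named after their values were seen. Lists are described by counts and medians, without a set test. Promoter sequences came from RefSeq (GRCm38.p6), 7 of 8 members matching by symbol; the core element TGACG was added to the motifs after the sequences were seen. Alternatives are described in the closing section. Protein sequences were not used here.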

Additional observations from a re-analysis of the deposited data

How the results depend on the processing

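Quantile normalization, unscaled values, pseudocounts of 1 and 64, filters that kept all probe sets or the brightest 40%, a replicate block, eBayes with no intensity trend, leaving out each array and averaging a gene's probe sets gave 105 values for the 7 member genes. All but 1 kept the sign of the reported change. The unscaled values, filters, replicate block and eBayes setting left each log2 change as it was, so they could not alter a sign. Averaging likewise left genes with 1 probe set as they were, so only the other alternatives could bear on the sign. For Scg2 and the _f set of Chgb the groups did not overlap. For these, leaving out an array or changing the pseudocount could not alter the sign either. Of the 105 values, 86 had a test, and 0 of these passed the threshold. The other 19, the averaged values and most of those for Pcsk1, were not tested. The exception in sign was Pcsk1 without non-deprived replicate 3, with a log2 change of 0.00083 against -0.21 as reported. Its cause was not tested. Scg2 ranged from -0.51 to -0.40. Averaging probe sets brought Chgb to -0.07, since its dim _r set then counts equally with the bright one, and the median of the 7 genes to -0.074. That median ran from -0.19 to -0.11 with 1 array left out, and the number of genes with a lower mean was 4 or 5. Leaving out _f, _r and _i probe sets, an alternative chosen after seeing the data, removed Chgb and Cpe, which have no other kind. The remaining Scg2, Chga, Scg3, Scg5 and Pcsk1 had a median of -0.15, and 4 of them had a lower mean. The number of probe sets past the threshold over all tested, 13 as reported, ran from 7 to 10 with 1 array left out; leaving out non-deprived replicate 2 gave 7, and leaving out either non-deprived replicate 3 or deprived replicate 3 gave 8. Same-numbered samples did not deviate together (correlations of 0.00297, 0.049 and -0.0201, and 1 of 6 samples correlated best with its own number). These correlations cannot settle whether equal numbers mark the same mice, which is not stated. With the replicate block 10 probe sets passed, and no member did. The median log2 change of the peptide precursor list was -0.21 without non-deprived replicate 2 and -0.01 without non-deprived replicate 3. With 3 arrays in each group and no detection calls, small changes and dim probe sets such as that of Pcsk1 are poorly measured.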
